A study of Mus musculus with 39 samples.

Results

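Collagen genes were followed in brain endothelial cells of mouse pups whose endothelium had lost Smad4, Alk1 or Eng. The members are all genes whose symbol has the form of a collagen chain, that is Col, a number, the letter a and a second number. This gave 44 of the 24946 genes in the deposited tables, of which 8 are basement membrane collagens, 11 are fibrillar and 25 belong to other classes by textbook grouping. A gene counted as measured where 5 or more libraries of its table reached a normalized value of 20 (3 or more of the 9 antibody libraries). By this rule 39 members were measured in the Smad4 cohort and 38 each in the Alk1, Eng and IgG comparisons. Asking for 5 of the 6 IgG libraries left 36. Col24a1, Col19a1, Col6a4, Col6a5 and Col10a1 were measured in no table, with a highest single value of 24.2 (Col6a5, Smad4 cohort). Col9a1 was measured in the Smad4 cohort alone, where exactly 5 of 10 libraries reached 20, against 4 of 10 in the Eng cohort.

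All mutants were homozygous for a floxed allele and carried Cdh5-CreERT2, a tamoxifen-inducible Cre recombinase driven by the promoter of the endothelial cadherin gene Cdh5. All wild types carried the same floxed allele without Cre, on the C57BL/6 strain throughout. The 5 Smad4 mutants (Smad4f/f; Cdh5-CreERT2), their 5 wild types (Smad4f/f), the 5 Eng mutants (Engf/f; Cdh5-CreERT2) and their 5 wild types (Engf/f) were taken on postnatal day 7, and tamoxifen was given at 300 µg on each of days 1, 2 and 3 in these cohorts. The 5 Alk1 mutants (Alk1f/f; Cdh5-CreERT2) and their 5 wild types (Alk1f/f) were taken on day 6, with 100 µg of tamoxifen on day 4. A further 3 Smad4 mutants received LC10, an inhibitor of angiopoietin-2, and 3 Smad4 mutants and 3 Smad4f/f wild types received IgG, at 30 µg on days 2 and 4, and were taken on day 7. These LC10 and IgG groups were also given tamoxifen, at 300 µg on each of days 1, 2 and 3. Endothelial cells were captured from digested whole brain on beads with an antibody to PECAM. The labels do not tie libraries to animals or litters, so the p-values measure the spread between these libraries. Library numbers in the untreated cohorts follow the order of the columns.

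The normalized values of a library summed to between 25400000 and 42700000 and its depth in reads was not recovered from them. In Smad4 mutants the Smad4 value was 1676 to 1916, against 5258 to 5903 in wild types, and under IgG it was 1817 to 3030 in mutants and 5625 to 5975 in wild types. The Eng value was 8613 to 11510 in Eng mutants and 60150 to 70400 in wild types. Acvrl1, the gene of Alk1, had values of 12440 to 15810 in libraries labelled Alk1 mutant and 14200 to 16760 in wild types. A sum over the whole gene also counts exons that a deletion leaves in place, so this value checks nothing about the Alk1 genotype, and every direction in that cohort rests on the labels. All 10 endothelial markers checked were measured and above 0 in every library.

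A collagen is a protein of 3 chains wound into a triple helix. Type IV collagen, the scaffold of basement membranes, is built from chains encoded by Col4a1 to Col4a6 and is laid down around brain capillaries by endothelial cells and pericytes. Types XV and XVIII also reside in basement membranes and end in fragments (endostatin, in type XVIII) known to restrain vessel growth. Fibrillar collagens form the banded fibres of connective tissue and are made chiefly by fibroblasts. Smad4 carries signals of TGF-beta and BMP receptors to the nucleus, Alk1 is an endothelial receptor for BMP9, and Eng is its co-receptor. Mutations of COL4A1 and COL4A2 cause small-vessel disease with brain haemorrhage in people, and loss of the Smad4, Alk1 or Eng signal underlies hereditary haemorrhagic telangiectasia.

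Col4a1 and Col4a2 lie head to head on opposite strands of chromosome 8, and their promoter windows are shown because both genes were higher in mutants of every comparison. Each window runs from 250 bases before to 50 bases after the start of a transcript (RefSeq, GRCm38.p6). The 78 bases that the pair share are in capitals, and the windows read from opposite strands.
Col4a1, chr8:11312777-11313076, minus strand: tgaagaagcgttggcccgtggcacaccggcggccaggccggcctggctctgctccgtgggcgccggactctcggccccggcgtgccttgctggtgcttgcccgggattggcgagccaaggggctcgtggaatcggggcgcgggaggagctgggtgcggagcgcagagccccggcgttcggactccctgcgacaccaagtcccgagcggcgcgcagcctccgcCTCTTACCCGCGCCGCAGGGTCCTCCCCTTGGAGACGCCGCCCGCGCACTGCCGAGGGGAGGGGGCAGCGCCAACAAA
Col4a2, chr8:11312555-11312854, plus strand: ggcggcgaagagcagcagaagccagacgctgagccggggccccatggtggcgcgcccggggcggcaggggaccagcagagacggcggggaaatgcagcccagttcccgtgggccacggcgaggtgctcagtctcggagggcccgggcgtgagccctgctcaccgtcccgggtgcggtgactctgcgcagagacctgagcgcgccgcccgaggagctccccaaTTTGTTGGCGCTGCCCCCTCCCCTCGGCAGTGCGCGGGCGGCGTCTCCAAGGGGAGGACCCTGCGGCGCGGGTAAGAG
Col18a1 is shown with both of its listed starts because its value moved in opposite directions in Smad4 and Alk1 mutants. Capitals here mark CAGAC or its reverse complement GTCTG, a short motif known to be bound by SMAD proteins.
Col18a1, upstream start, chr10:77166481-77166780, minus strand: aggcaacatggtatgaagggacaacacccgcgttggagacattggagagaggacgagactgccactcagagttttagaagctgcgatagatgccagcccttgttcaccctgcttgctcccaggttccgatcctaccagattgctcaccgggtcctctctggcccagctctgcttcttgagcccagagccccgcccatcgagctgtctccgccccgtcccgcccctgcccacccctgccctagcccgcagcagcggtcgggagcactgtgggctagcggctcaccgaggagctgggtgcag
Col18a1, downstream start, chr10:77113656-77113955, minus strand: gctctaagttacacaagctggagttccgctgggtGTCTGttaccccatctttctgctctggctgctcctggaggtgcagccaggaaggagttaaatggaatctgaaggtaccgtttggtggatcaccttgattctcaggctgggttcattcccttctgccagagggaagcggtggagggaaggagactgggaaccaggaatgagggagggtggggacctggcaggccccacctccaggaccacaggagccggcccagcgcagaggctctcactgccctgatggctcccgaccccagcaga
On either strand, CAGAC was found 0 times in the Col4a1 window, 1 time in the Col4a2 window, 0 times at the upstream and 1 time at the downstream start of Col18a1. It is a common string, present in 49.6% of all 32851 windows of the table and in 20 of the 38 collagen windows, which stand for 35 of the 44 members. The GC-rich SMAD motif GGCGCC was found 1 time in the Col4a1 window and in none of the other windows shown, against 11.9% of all windows and 5 collagen windows. These matches describe the letters alone, and a value per gene does not tell which Col18a1 start was used.

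A gene is called changed here at a Benjamini-Hochberg adjusted p under 0.05 from limma, fitted on log2(value + 2) over all genes of a comparison. In Smad4 mutants 23 of 39 measured collagens were called, 5 higher and 18 lower, where 33.0% of all 14012 genes tested were called (17.2% higher and 15.8% lower). In Alk1 mutants 13 of 38 were called, 3 higher and 10 lower, against 33.2% of 13635 genes (17.5% higher and 15.7% lower). In Eng mutants 7 of 38 were called, 5 higher and 2 lower, against 21.5% of 14350 genes (12.4% higher and 9.08% lower). Under IgG 13 of 38 were called in Smad4 mutants, 3 higher and 10 lower, against 24.0% of 14052 genes (13.2% higher and 10.8% lower). The median log2 fold change (mutant minus wild type) of the measured collagens was -0.68 in the Smad4 cohort, -0.31 in the Alk1 cohort, -0.01 in the Eng cohort and -0.54 under IgG, while that of all genes lay between -0.01 and 0.00. At a fold change of at least 2, 12 collagens were called in Smad4 mutants (1 higher, 11 lower, 7.37% of all genes), 1 in Alk1 mutants (lower, 5.95%), none in Eng mutants (0.969%) and 4 under IgG (1 higher, 3 lower, 3.76%). Scaling each library to the same total moved the share of higher calls over all genes to 37.2% in Smad4 mutants (52.1% as deposited) and 41.1% in Alk1 mutants (52.7%), and the collagen calls to 5 higher and 21 lower and to 3 higher and 11 lower. Quantile normalization gave shares of 53.0% and 46.6% over all genes, and the collagen calls were then 5 higher and 14 lower in Smad4 mutants, 4 and 8 in Alk1 mutants, 4 and 2 in Eng mutants and 4 and 7 under IgG. Falls made up 46.2% of the measured collagens in Smad4 mutants, 26.3% in Alk1 mutants, 5.26% in Eng mutants and 26.3% under IgG, above the share of falls among all genes in each comparison but Eng. Rises made up 12.8%, 7.89%, 13.2% and 7.89% in the same order. The Eng share was near the 12.4% of all genes, and the others lay below the share of rises among all genes. The counts depend on which libraries enter. Among the libraries without a code (3 against 3), 15 collagens were called in Smad4 mutants and 4 in Alk1 mutants, and 8 in Alk1 mutants with the number in the column name as a replicate block. With this block the Alk1 calls of Col4a2, Col9a2, Col26a1, Col11a2 and Col20a1 that all 10 libraries gave were not made (adjusted p = 0.0566 to 0.203). The block fit leaves out the coded libraries, and the same libraries gave fewer calls (4) without the block. Under IgG the count was 5 without wild type 1, 7 without wild type 2, mutant 2 or mutant 3, and 8 without limma's intensity trend. Col4a1, Col4a2 and Col7a1 were called higher in all 3 untreated cohorts. Another 10 members were called in 2 of these cohorts, among them Col18a1 and Col5a2 in opposite directions. A further 14 were called in 1 and 17 in none, the last including the 5 that were not measured. The share of all genes called in as many cohorts is not given here, so these counts are no result about collagens.

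**Figure D1:**
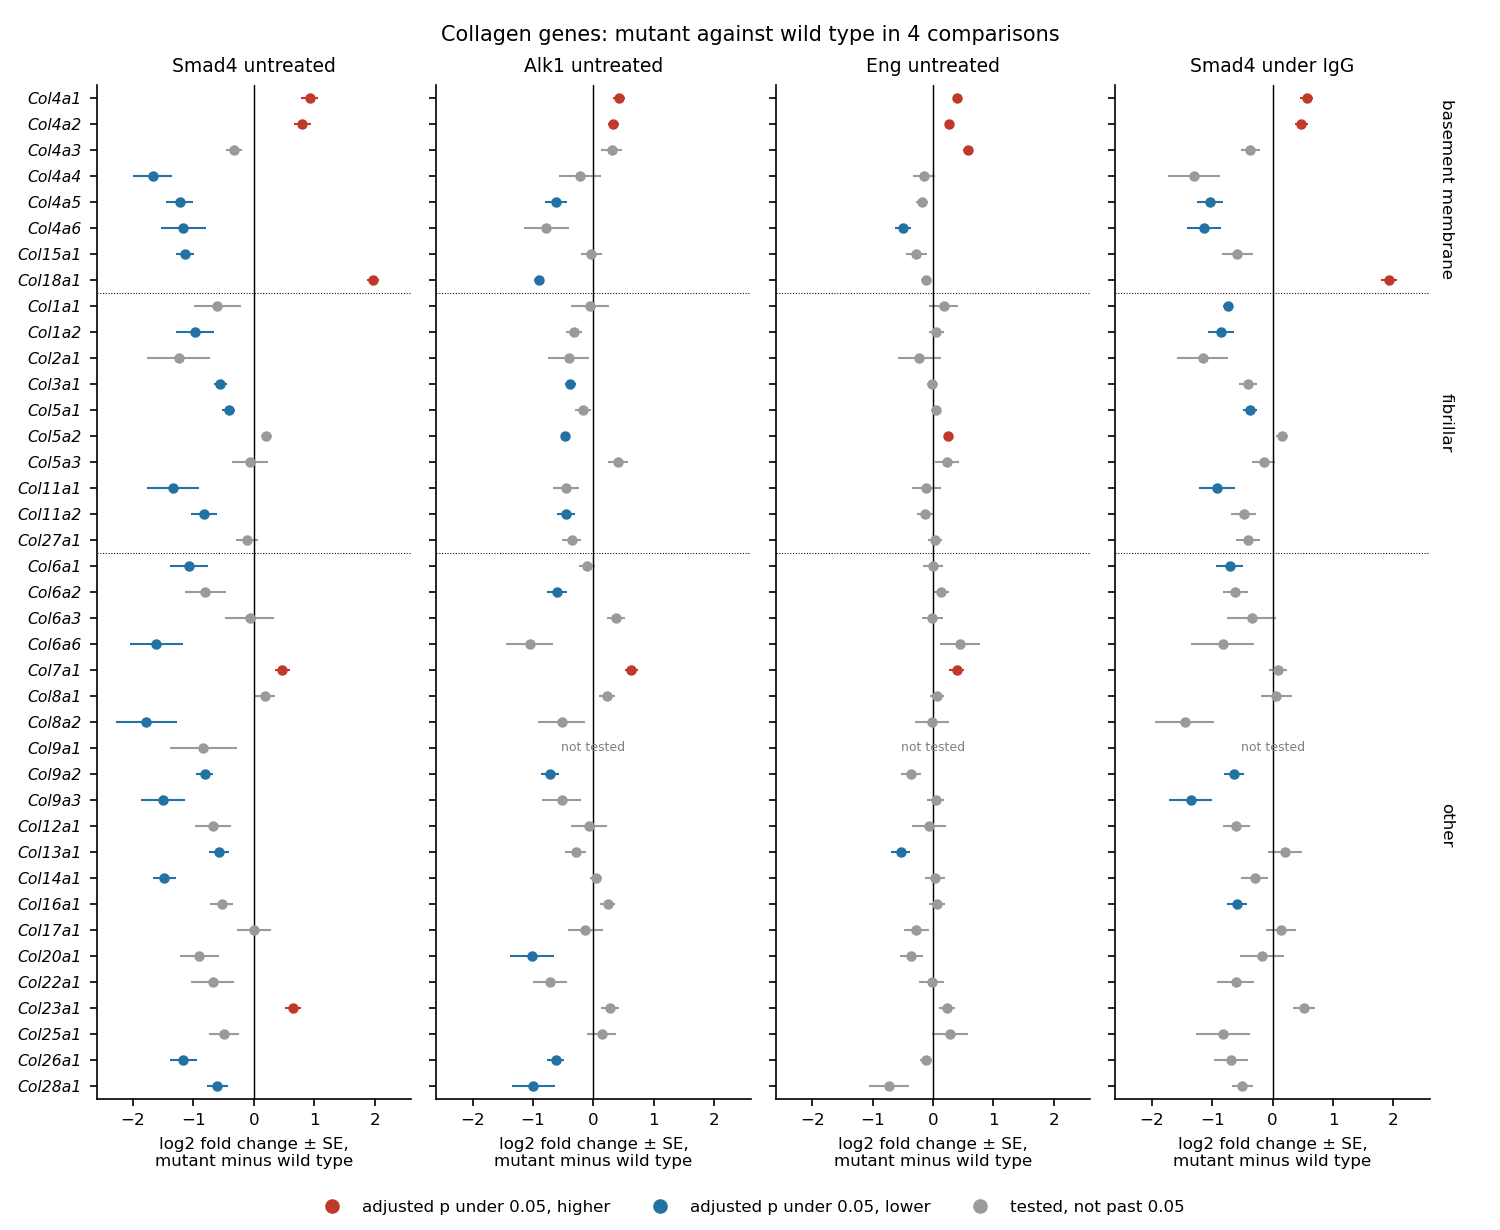
Log2 fold change with its standard error, mutant minus wild type, of each collagen measured in at least 1 of 4 comparisons (columns), grouped by class from top to bottom. Red and blue mark adjusted p under 0.05, with 23, 13, 7 and 13 genes past it from left to right, and Col18a1 stands at 1.97 in Smad4 mutants and -0.91 in Alk1 mutants.

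Among the basement membrane collagens, the main type IV pair rose in every comparison and type XVIII rose in Smad4 mutants and fell in Alk1 mutants. Of the 8 members, 7 were called in Smad4 mutants (3 higher, 4 lower), 4 in Alk1 mutants (2 and 2), 4 in Eng mutants (3 and 1) and 5 under IgG (3 and 2). Of all genes 33.0%, 33.2%, 21.5% and 24.0% were called in the same order. In GRCm38, Col4a1 lies at chr8:11198423-11312826 on the minus strand, Col4a2 at chr8:11312805-11449287 on the plus strand, Col18a1 at chr10:77052178-77166548 on the minus strand and Col15a1 at chr4:47208161-47313167 on the plus strand. Col4a1, which encodes the commonest type IV chain, had values of 205900, 228400, 191500, 325100 and 297800 in Smad4 mutants, against 120200, 134600, 125200, 133500 and 131600 in wild types. All 5 mutants lay above all 5 wild types, and the rise was 0.92 ± 0.15 on the log2 scale (SE, adjusted p = 0.000861). The 2 highest mutants carry library code L146, and within this code the rise was 1.23 (2 against 2), against 0.72 among the libraries without a code (3 against 3).

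In Alk1 mutants Col4a1 had values of 217500, 240500, 268400, 232400 and 204300, against 154700, 184100, 179300, 168000 and 179400 in wild types. Eng mutants had 216400, 205200, 230800, 211600 and 233500, against 170200, 164800, 161300, 157700 and 176400 in wild types. IgG mutants had 212000, 245300 and 275200, against 171000, 157100 and 164600 in IgG wild types. The groups did not overlap in any of the 4 comparisons, and the share of all genes without overlap was 22.8% in the Smad4 cohort, 24.5% in the Alk1 cohort, 16.5% in the Eng cohort and 40.9% under IgG. The log2 rise was 0.42 ± 0.10 in Alk1 mutants (SE, adjusted p = 0.00568), 0.40 ± 0.06 in Eng mutants (adjusted p = 0.00061) and 0.57 ± 0.11 under IgG (adjusted p = 0.006). Col4a1 alone took up 0.587 to 0.902% of the summed value of a Smad4 mutant library and 0.381 to 0.415% of a wild-type one.

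Col4a2, whose product joins that of Col4a1 in the same trimer, had values of 164300, 180000, 154700, 253200 and 243600 in Smad4 mutants and 101600, 117700, 108200, 118100 and 113700 in wild types. Alk1 mutants had 156100, 175200, 194700, 171000 and 153000, against 120700, 143000, 142600, 130900 and 137000 in wild types. Eng mutants had 171700, 158100, 179800, 167000 and 186700, against 142500, 141300, 141200, 135300 and 158500 in wild types. The groups stood apart in the Smad4 and Alk1 cohorts, and in the Eng cohort 1 wild type reached just above the lowest mutant. Under IgG the values were 161800, 181400 and 211100 in mutants and 134000, 128200 and 134000 in wild types, again with no overlap. The log2 rise was 0.80 ± 0.14 in Smad4 mutants (SE, adjusted p = 0.00191), 0.33 ± 0.09 in Alk1 mutants (0.0159), 0.26 ± 0.06 in Eng mutants (0.0115) and 0.48 ± 0.10 under IgG (0.0103). The Alk1 call rests on all 10 libraries, with adjusted p = 0.124 for Col4a2 and 0.0645 for Col4a1 among the 6 libraries without a code, and 0.0709 for Col4a2 with the replicate block. Fitting all 30 untreated libraries together ended the Eng call of Col4a2 (adjusted p = 0.116).

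Col4a1 rose more than Col4a2 in each untreated cohort. The ratio of the Col4a1 value to the Col4a2 value, not corrected for length, was 1.25 ± 0.02 in Smad4 mutants and 1.15 ± 0.02 in wild types (SD, n = 5 each). It was 1.37 ± 0.02 in Alk1 mutants and 1.28 ± 0.02 in wild types, and 1.27 ± 0.02 in Eng mutants and 1.16 ± 0.03 in wild types. Mutants and wild types did not overlap in any of these cohorts (two-sided exact permutation test, p = 0.00794 each, the smallest that 5 against 5 allows, and 0.0254 after adjustment over 16 ratio tests). Under IgG the ratio was 1.32 in mutants and 1.24 in wild types, where the smallest p possible is 0.1. The pair overlap in their first exons on opposite strands and the library kit does not mark strand, so reads from the overlap cannot be told apart.

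Col18a1, which encodes the type XVIII chain and its endostatin fragment, showed the widest contrast between cohorts. It had values of 89930, 94970, 96420, 110100 and 104900 in Smad4 mutants, against 20810, 26990, 24060, 28160 and 26820 in wild types. Alk1 mutants had 15450, 13630, 14540, 11680 and 12860, against 24280, 27380, 26520, 25390 and 23840 in wild types. Every Smad4 mutant thus lay above, and every Alk1 mutant below, all of its wild types. In Eng mutants the values were 30340, 28740, 29830, 29480 and 33340, against 29610, 31620, 33030, 31070 and 40700 in wild types, with overlapping groups. Under IgG they were 73090, 97470 and 110400 in mutants and 24980, 22670 and 25360 in wild types. The log2 fold change was 1.97 ± 0.09 in Smad4 mutants (SE, adjusted p = 1.6e-07), -0.91 ± 0.08 in Alk1 mutants (6.66e-06), -0.12 ± 0.08 in Eng mutants (0.306, 95% interval -0.29 to 0.05) and 1.93 ± 0.13 under IgG (9.04e-05). Both codes of the Smad4 cohort gave 1.97 to 1.98, and those of the Alk1 cohort -0.84 and -1.01.

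Col15a1, the closest relative of Col18a1, went the other way in Smad4 mutants. It had values of 2687, 1811, 2018, 1664 and 1585 in Smad4 mutants, against 5150, 4462, 3602, 4341 and 3734 in wild types, a fall of 1.14 ± 0.14 on the log2 scale (SE, adjusted p = 0.000186) with no overlap. IgG mutants had 3187, 2608 and 1528, against 3682, 2732 and 4251 in IgG wild types, which overlap (log2 -0.58, adjusted p = 0.117). It averaged 3527 ± 1099 in Alk1 mutants and 3526 ± 559 in wild types, and 4310 ± 934 in Eng mutants and 5248 ± 1154 in wild types (SD, n = 5 each), neither past the threshold. The ratio of Col18a1 to Col15a1 was 53.2 ± 13.8 in Smad4 mutants and 6.09 ± 1.22 in wild types, and 4.03 ± 0.68 in Alk1 mutants and 7.36 ± 1.10 in wild types (two-sided exact permutation test, p = 0.00794 each, adjusted 0.0254). The Smad4 p adds nothing new, because each gene alone already set the groups apart, in opposite directions. In the Eng cohort the ratio was 7.29 ± 1.5 in mutants and 6.83 ± 2.97 in wild types (exact p = 0.619).

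**Figure D2:**
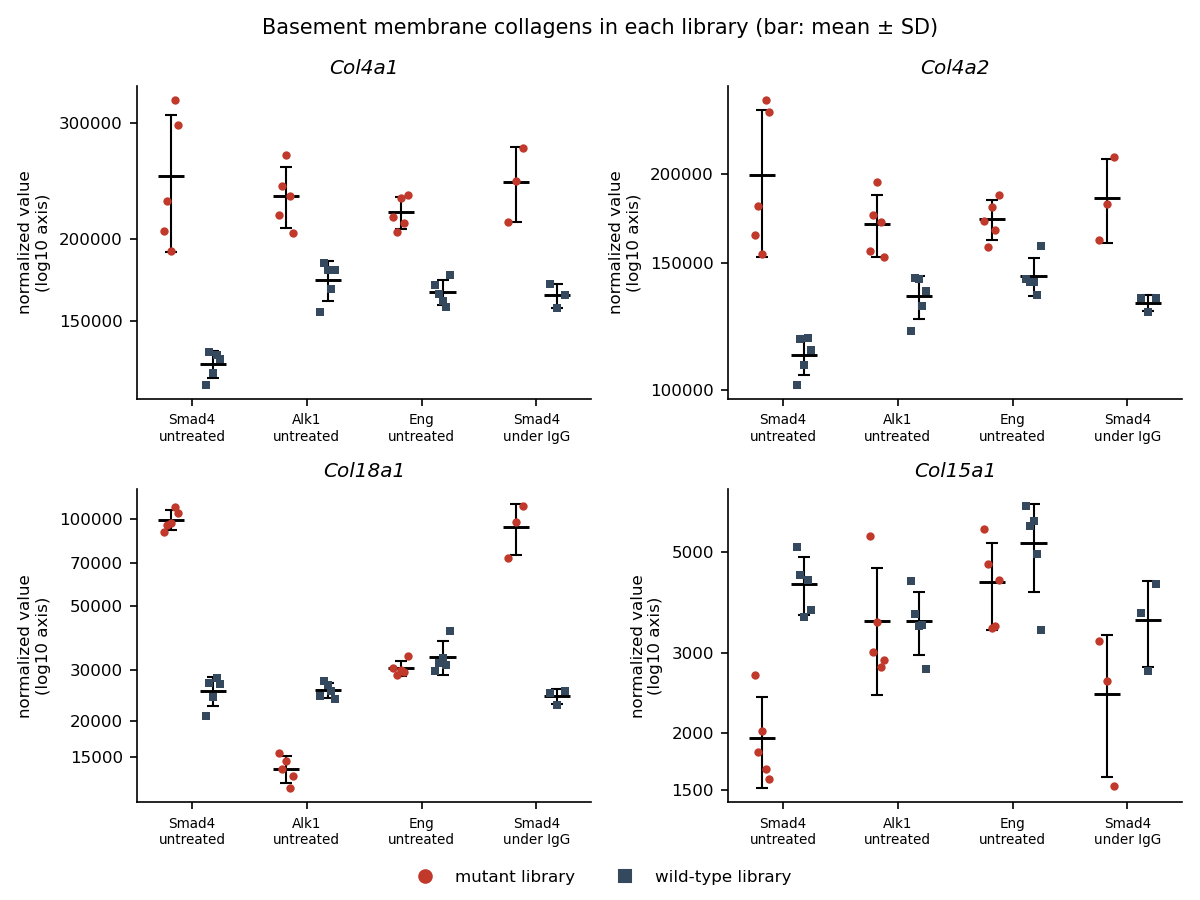
Normalized value (log10 axis) of Col4a1, Col4a2, Col18a1 and Col15a1 in each library, by comparison, with mutants in red left of wild types in dark blue and the mean ± SD in black. Col18a1 lies between 89930 and 110100 in Smad4 mutants and between 11680 and 15450 in Alk1 mutants, while wild types of the Smad4 and Alk1 cohorts lie between 20810 and 28160.

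The minor type IV chains, which replace the main pair in kidney, lung and smooth muscle basement membranes, had far lower values. Of these 4 chains, 3 fell in Smad4 mutants, 1 in Alk1 mutants, 1 in Eng mutants and 2 under IgG, 1 rose in Eng mutants, and the others were not called. The shares of all genes that fell were 15.8%, 15.7%, 9.08% and 10.8% in that order, and 12.4% rose in Eng mutants. Col4a5 had values of 316, 241, 321, 209 and 155 in Smad4 mutants, against 828, 515, 480, 463 and 601 in wild types (log2 -1.23 ± 0.22, adjusted p = 0.00187). In Alk1 mutants it had 336, 210, 245, 403 and 302, against 458, 335, 492, 456 and 533 in wild types (-0.62 ± 0.18, 0.018). Under IgG it had 429, 285 and 227 in mutants and 683, 648 and 543 in wild types (-1.03 ± 0.21, 0.00889). Groups stood apart in the Smad4 and IgG comparisons and overlapped in the Alk1 cohort. In Eng mutants Col4a5 averaged 527 ± 75 and in wild types 593 ± 53 (adjusted p = 0.25).

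Col4a6, the neighbour of Col4a5 on chromosome X, had values of 74.4, 54.8, 69.8, 22.9 and 23.4 in Smad4 mutants and 162.2, 112.3, 74.9, 78.8 and 94.0 in wild types (log2 -1.17 ± 0.37, adjusted p = 0.0336). This call was lost without wild type 1, 2 or 5 or mutant 4 or 5 (adjusted p = 0.0574 to 0.0822). Eng mutants had 118.4, 112.1, 133.1, 91.3 and 100.3, against 167.5, 139.0, 166.2, 159.2 and 149.4 in wild types (-0.49 ± 0.13, 0.0166, but 0.429 with all untreated libraries in 1 fit). IgG mutants had 62.1, 59.9 and 28.3, against 115.5, 103.4 and 100.4 in IgG wild types (-1.13 ± 0.29, 0.0202, and 0.0582 without wild type 1 or 0.0545 without wild type 2). No mutant reached a wild type in these 3 comparisons. In Alk1 mutants its mean was 48.9 and in wild types 76.2 (adjusted p = 0.125).

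Col4a4 had values of 20.6, 21.7, 38.5, 29.2 and 15.8 in Smad4 mutants, against 151.4, 64.4, 97.6, 63.5 and 57.3 in wild types (log2 -1.67 ± 0.32, adjusted p = 0.00294). These values sit near the limit of 20, and the groups do not overlap. Under IgG it had 43.3, 48.5 and 17.8 in mutants and 138.3, 75.1 and 60.7 in wild types (adjusted p = 0.0532), and its Alk1 and Eng groups overlapped. Col4a3, the neighbour of Col4a4, was called in the Eng cohort only, with 1111, 1270, 1188, 1160 and 1058 in mutants and 728, 726, 972, 772 and 695 in wild types (0.58 ± 0.09, adjusted p = 0.000651). Its mean in Smad4 mutants was 490 and in wild types 618 (adjusted p = 0.079), and in Alk1 mutants it was 763 and in wild types 605 (adjusted p = 0.207). The rise in Eng mutants differed from the Smad4 effect (a difference of -0.91 ± 0.21 for Smad4 against Eng, adjusted p = 0.00559).

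Per kilobase of exon, Col4a1 and Col4a2 together made up 77.8 ± 3.2% of the collagen signal in Smad4 mutants and 80.6 ± 1.0% in wild types (SD, n = 5 each). In the Alk1 cohort they made up 91.9 ± 1.1% in mutants and 85.8 ± 0.9% in wild types, and in the Eng cohort 85.5 ± 1.1% in mutants and 82.0 ± 0.5% in wild types. Col18a1 took 17.7 ± 2.1% in Smad4 mutants and 8.50 ± 0.65% in wild types, and 3.16 ± 0.41% in Alk1 mutants and 7.16 ± 0.35% in wild types. Fibrillar collagens took 2.74 ± 0.57% in Smad4 mutants and 5.62 ± 0.43% in wild types, 2.45 ± 0.34% in Alk1 mutants and 3.83 ± 0.38% in wild types, and 4.38 ± 0.61% in Eng mutants and 4.78 ± 0.41% in wild types. These are parts of a whole, so a larger part of one group lowers the others.

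**Figure D3:**
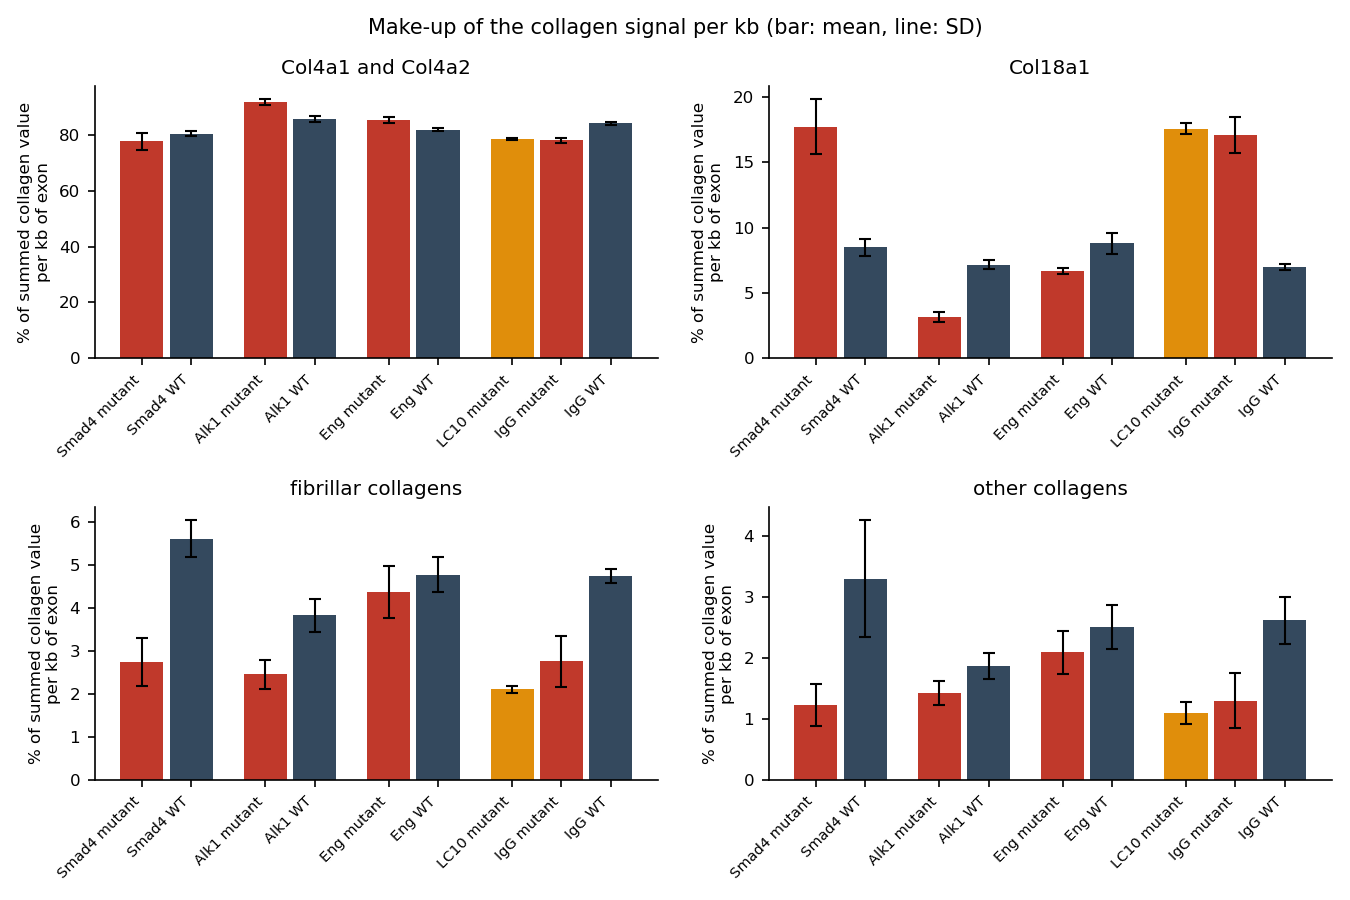
Part of the summed collagen value per kilobase of exon, in percent, held by Col4a1 and Col4a2 together, Col18a1, the fibrillar collagens and the other collagens in 9 groups (bars, mean with SD line, n = 5 or, for the LC10 and IgG groups, 3). Col18a1 holds 17.1 to 17.7% in the 3 groups of Smad4 mutants and 3.16% in Alk1 mutants.

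Some fibrillar collagens fell in Smad4 and Alk1 mutants, and Col5a2 rose in Eng mutants. Of the 10 measured, 5 fell in Smad4 mutants, 3 in Alk1 mutants and 4 under IgG, with none higher, while 1 rose and none fell in Eng mutants. The called parts were 50% in Smad4 mutants (33.0% of all genes), 30% in Alk1 mutants (33.2%), 10% in Eng mutants (21.5%) and 40% under IgG (24.0%). In bulk RNA, fewer cells of a type and less RNA per cell cannot be told apart. Some markers of fibroblasts and mural cells fell in Smad4 mutants, in Alk1 mutants and under IgG. Among all genes, 15.8% fell in Smad4 mutants, 15.7% in Alk1 mutants, 9.08% in Eng mutants and 10.8% under IgG. In Smad4 mutants 5 of 9 measured fibroblast markers fell and none rose (summed value 13500 to 22100 in mutants and 19700 to 28600 in wild types), and 6 of 10 pericyte markers fell (17100 to 52800 in mutants and 59200 to 84200 in wild types). Under IgG 5 of 9 and 7 of 10 fell (fibroblast sum 17400 to 24500 in mutants and 23700 to 31400 in wild types, pericyte sum 39800 to 76800 and 79600 to 110000). In Alk1 mutants 3 of 9 fibroblast markers fell and 1 rose (13800 to 18600 in mutants and 17700 to 22800 in wild types), and 3 of 10 pericyte markers fell (63000 to 120000 in mutants and 92400 to 117000 in wild types). The called part of the pericyte list was 30% there, near the 33.2% of all genes, and the pericyte sums overlap. In Eng mutants 1 fibroblast marker rose, 1 fell (24500 to 32200 in mutants and 26100 to 30800 in wild types) and no pericyte marker was called (74800 to 134000 in mutants and 79200 to 130000 in wild types). Of 6 measured smooth muscle markers 4 fell in Smad4 mutants (sum 2920 to 5450 in mutants and 6080 to 6980 in wild types), 4 in Alk1 mutants (4210 to 5310 and 6130 to 7070), none in Eng mutants (7210 to 8670 and 6200 to 8940) and 3 under IgG (4160 to 6000 and 6040 to 7600). The sum of the 10 endothelial markers was 421000 to 530000 in Smad4 mutants and 407000 to 485000 in wild types (2 rose, 1 fell), 409000 to 461000 in Alk1 mutants and 431000 to 469000 in wild types (3 rose, 2 fell), 524000 to 560000 in Eng mutants and 537000 to 604000 in wild types (4 fell), and 450000 to 455000 in IgG mutants and 443000 to 465000 in IgG wild types (2 rose, 2 fell). Some markers of brain cells fell in both sets of Smad4 mutants as well. All 7 microglial markers fell under IgG (sum 9560 to 14800 in mutants and 15800 to 31300 in wild types), while none was called in untreated Smad4 mutants (4970 to 17800 in mutants and 8010 to 19900 in wild types), Alk1 mutants (8740 to 10500 and 7320 to 14700) or Eng mutants (9770 to 21000 and 9900 to 23500). In Smad4 mutants 1 of 6 astrocyte markers (1440 to 12300 in mutants and 6400 to 21300 in wild types), 3 of 6 oligodendrocyte markers (1540 to 7570 and 5910 to 19900) and 4 of 6 neuronal markers (2050 to 2850 and 2170 to 3180) fell. Under IgG 3 astrocyte markers (3010 to 4200 in mutants and 4330 to 8490 in wild types) and 1 oligodendrocyte marker (2680 to 3000 and 3180 to 8150) fell, and 1 neuronal marker rose and 1 fell (1790 to 2540 and 1470 to 2120). Of these 3 lists 1 neuronal marker fell in Alk1 mutants (875 to 1060 in mutants and 1070 to 1890 in wild types) and none was called in Eng mutants. Of the fibroblast and pericyte lists Dpt alone was at 0 in some library of each table, and no marker was at 0 throughout. The part of all these markers in the collagen results was not tested.

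Col3a1, the chain of type III collagen of vessel walls, had values of 4581, 4231, 4878, 4094 and 3321 in Smad4 mutants, against 7085, 6289, 4999, 5919 and 6654 in wild types (log2 -0.55 ± 0.11, adjusted p = 0.004). Alk1 mutants had 3856, 4545, 3344, 4527 and 4208, against 5613, 5358, 4734, 5084 and 5799 in wild types (-0.38 ± 0.09, 0.00688). Neither pair of groups overlapped. In Eng mutants it averaged 6458 ± 1061 and in wild types 6447 ± 472, and under IgG 4800 ± 1089 in mutants and 6276 ± 775 in wild types (adjusted p = 0.0776).

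Both chains of type I collagen were called lower under IgG. Col1a1 had 579, 676 and 580 in IgG mutants and 1019, 1055 and 982 in IgG wild types (log2 -0.74 ± 0.08, adjusted p = 0.000569). In untreated Smad4 mutants it ranged from 336 to 1706 and in wild types from 807 to 1465, which overlap (-0.61 ± 0.39, adjusted p = 0.25). Col1a2 had values of 2298, 1829, 2616, 1139 and 699 in Smad4 mutants, against 3775, 3329, 2342, 2743 and 3242 in wild types (-0.98 ± 0.32, 0.0345). That call was lost without wild type 1, 2, 4 or 5 or mutant 4 (adjusted p = 0.0501 to 0.0826), and the fall was 1.74 within code L146 and 0.47 among libraries without a code. Under IgG Col1a2 had 2714, 1954 and 1476 in mutants and 4240, 3614 and 2985 in wild types (-0.85 ± 0.22, 0.0202, and 0.0548 to 0.0643 without wild type 1 or 2 or mutant 2 or 3).

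Type XI chains, which set the width of cartilage fibrils, had low values. Col11a1 had 138.5, 62.9, 109.5, 32.5 and 25.3 in Smad4 mutants, against 213.1, 176.7, 130.1, 112.7 and 168.3 in wild types (log2 -1.34 ± 0.43, adjusted p = 0.0337). The groups overlap, and the call was lost without wild type 1, 2, 3 or 5 or mutant 2, 4 or 5 (adjusted p = 0.0514 to 0.0812). Under IgG it had 52.2, 74.2 and 52.6 in mutants and 98.4, 139.1 and 106.4 in wild types (-0.92 ± 0.30, 0.0471), a call that each left-out library ended (adjusted p = 0.0618 to 0.144). Col11a2 had 87.0, 54.9, 121.4, 83.9 and 103.0 in Smad4 mutants, against 201.0, 160.3, 113.8, 147.3 and 170.6 in wild types (-0.83 ± 0.22, 0.0167). In Alk1 mutants its fall was 0.46 ± 0.15 on the log2 scale (mean 60.8 in mutants and 84.2 in wild types, adjusted p = 0.0346), and it was lost without wild type 1, 2, 4 or 5 or mutant 2 or 3 (0.0616 to 0.0743).

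Type V chains, which start the assembly of type I fibrils, split by cohort. Col5a2, the fibrillar collagen with the highest value per kilobase, had 6204, 6099, 6488, 6119 and 6129 in Alk1 mutants, against 9307, 8224, 7845, 9352 and 8600 in wild types (log2 -0.48 ± 0.06, adjusted p = 0.000114). In Eng mutants it had 12250, 12560, 13890, 12960 and 10700, against 10520, 10690, 10310, 10200 and 10410 in wild types (0.25 ± 0.06, 0.00744). Neither pair of groups overlapped, and the directions are opposite. In Smad4 mutants it had 10950, 12800, 10600, 14100 and 13920 and in wild types 9427, 10590, 10680, 11660 and 11370 (0.21 ± 0.09, adjusted p = 0.101). Col5a1 fell in Smad4 mutants, with a mean of 702 ± 92 against 935 ± 103 in wild types (-0.41 ± 0.11, 0.0129). Under IgG it averaged 719 ± 105 in mutants and 925 ± 50 in wild types (adjusted p = 0.0497), a call lost without wild type 1, 2 or 3 or mutant 2 or 3 (0.0767 to 0.141). Col2a1, Col5a3 and Col27a1 were measured and not called in any comparison.

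The other collagens included the 1 member beside the type IV pair that rose in every untreated cohort, and a set of falls in Smad4 mutants. Col7a1, the chain of the anchoring fibrils that fasten skin epithelium, had values of 926, 992, 647, 802 and 1048 in Smad4 mutants, against 583, 690, 607, 631 and 624 in wild types (log2 0.47 ± 0.12, adjusted p = 0.0132). In Alk1 mutants it had 1096, 1175, 1202, 1257 and 1144, against 593, 776, 884, 671 and 916 in wild types (0.63 ± 0.11, 0.00127). Eng mutants had 1043, 1146, 1487, 1041 and 1473, against 1081, 892, 736, 1034 and 953 in wild types (0.39 ± 0.13, 0.0483). The Smad4 call of Col7a1 did not hold in the 6 libraries that carry no code (0.43, adjusted p = 0.106). Only the Alk1 groups stood apart, and the Eng call was lost without wild type 2, 3, 4 or 5 or mutant 2, 3 or 5 (adjusted p = 0.053 to 0.114). Under IgG it averaged 1063 ± 130 in mutants and 1002 ± 178 in wild types (adjusted p = 0.689).

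Of the 21 other collagens measured in the Smad4 cohort, 2 rose and 9 fell, of 20 in the Alk1 cohort 1 rose and 5 fell, of 20 in the Eng cohort 1 rose and 1 fell, and of 20 under IgG none rose and 4 fell. The called parts were 52.4% in the Smad4 cohort (33.0% of all genes), 30% in Alk1 (33.2%), 10% in Eng (21.5%) and 20% under IgG (24.0%). Only the Smad4 part lay above the share of all genes. Col23a1, a transmembrane collagen, had values of 599, 747, 740, 657 and 569 in Smad4 mutants, against 555, 419, 379, 344 and 440 in wild types (log2 0.64 ± 0.13, adjusted p = 0.00417), with no overlap. Col14a1, a collagen that coats fibrils, had 182, 192, 251, 312 and 177 in Smad4 mutants, against 743, 594, 766, 552 and 456 in wild types (-1.48 ± 0.19, 0.000211). Its groups stood far apart there, while it averaged 678 ± 89 in Alk1 mutants and 653 ± 55 in wild types, and 605 ± 173 in Eng mutants and 572 ± 46 in wild types. Under IgG it averaged 344 ± 107 in mutants and 411 ± 69 in wild types (adjusted p = 0.365).

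The type IX chains Col9a2 and Col9a3, which sit on cartilage fibrils, fell in both sets of Smad4 mutants. Col9a2 had values of 173, 206, 188, 248 and 147 in Smad4 mutants, against 311, 326, 361, 300.2 and 373 in wild types (log2 -0.81 ± 0.14, adjusted p = 0.00164). In Alk1 mutants it had 109.5, 138.0, 87.9, 136.4 and 120.3, against 192.0, 190.7, 173.3, 188.8 and 231.9 in wild types (-0.72 ± 0.15, 0.00281). Under IgG it averaged 184 ± 36 in mutants and 282 ± 9 in wild types (-0.63 ± 0.16, 0.0207, and 0.0517 to 0.0575 without wild type 1 or 3 or mutant 2 or 3). No mutant reached a wild type in these comparisons. Col9a3 had 514, 304, 391, 244 and 159 in Smad4 mutants, against 2007, 723, 778, 579 and 676 in wild types (-1.502 ± 0.37, 0.0104), where wild type 1 stood far above the rest. Under IgG it had 546, 374 and 177 in mutants and 1190, 800 and 646 in wild types (-1.36 ± 0.36, 0.024, and 0.0559 to 0.0755 without wild type 1 or 2 or mutant 2). Its exons overlap those of Tcfl5 on the opposite strand, from which unstranded reads cannot be told apart.

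Type VI chains, which form beaded filaments around cells, moved unevenly. Col6a1 had values of 235, 216, 450, 160 and 122 in Smad4 mutants, against 652, 534, 483, 327 and 347 in wild types (log2 -1.08 ± 0.32, adjusted p = 0.0244, and 0.0503 to 0.0603 without wild type 1, 2 or 3 or mutant 4). Under IgG it had 324, 297 and 181 in mutants and 458, 431 and 388 in wild types (-0.71 ± 0.22, 0.045, and 0.0677 to 0.114 without wild type 1, 2 or 3 or mutant 2 or 3). Col6a2 fell in Alk1 mutants, with 360, 373, 267, 386 and 241, against 506, 626, 461, 389 and 482 in wild types (-0.61 ± 0.16, 0.012, and 0.0532 with all untreated libraries in 1 fit). The Col6a1 groups overlap in the untreated Smad4 cohort, and the Col6a2 groups just fail to touch. Col6a6 had 244.1, 90.0, 76.1, 38.1 and 75.9 in Smad4 mutants, against 575.5, 170.4, 262.7, 251.6 and 217.6 in wild types (-1.61 ± 0.44, 0.0185), and in each group library 1 was the highest. Col6a3 was not called in any comparison.

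Further falls in Smad4 mutants touched collagens of several kinds. Col26a1 had values of 378, 306, 365, 267 and 149 in Smad4 mutants, against 711, 697, 530, 594 and 632 in wild types (log2 -1.17 ± 0.22, adjusted p = 0.0028). In Alk1 mutants it had 439, 303, 534, 458 and 364, against 567.5, 676, 662, 614 and 667 in wild types (-0.62 ± 0.14, 0.00429), and neither pair of groups overlapped. Col8a2, a chain of the network under the corneal endothelium, had 172.5, 132.8, 171.5, 68.8 and 28.9 in Smad4 mutants, against 824.7, 334.4, 300.8, 233.7 and 210.7 in wild types (-1.78 ± 0.51, 0.0213, and 0.0515 without mutant 4). The groups did not overlap, and wild type 1 stood far above the other wild types. Col28a1 had 128, 143, 136, 162 and 121 in Smad4 mutants and 162, 314, 192, 207 and 202 in wild types (-0.61 ± 0.17, 0.0209, and 0.141 with all untreated libraries in 1 fit). In Alk1 mutants Col28a1 had 298, 83.9, 142, 358 and 107, against 381, 233, 420, 344 and 346 in wild types (-0.996 ± 0.36, 0.0498). That last call was lost without wild type 1, 3, 4 or 5 or mutant 2, 3 or 5 (adjusted p = 0.0827 to 0.109).

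Col13a1, a transmembrane collagen, fell in Smad4 and in Eng mutants. It had values of 210, 152, 124, 117 and 172 in Smad4 mutants, against 241, 256, 244, 188 and 211 in wild types (log2 -0.57 ± 0.17, adjusted p = 0.0261, and 0.0564 to 0.0632 without wild type 1, 2 or 3 or mutant 4). In Eng mutants it had 232, 195, 123, 177 and 165, against 241, 218, 252, 266 and 300.0 in wild types (-0.53 ± 0.16, 0.0307, and 0.0554 to 0.066 without wild type 3, 4 or 5 or mutant 3, 4 or 5). Groups overlapped in both cohorts. Col20a1 had 14.7, 20.9, 6.5, 10.2 and 10.1 in Alk1 mutants, against 22.3, 43.7, 14.4, 29.9 and 26.1 in wild types (-1.02 ± 0.36, 0.0484), at the lower limit of measurement, and the call was lost without mutant 1, 3, 4 or 5 (0.0519 to 0.101). Col16a1 had 269, 284 and 198 in IgG mutants and 354, 389 and 372 in IgG wild types (-0.58 ± 0.17, 0.0334, and 0.0603 to 0.0974 without wild type 1, 2 or 3 or mutant 3). Col8a1, Col9a1, Col12a1, Col17a1, Col22a1 and Col25a1 were measured and not called in any comparison.

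**Figure D4:**
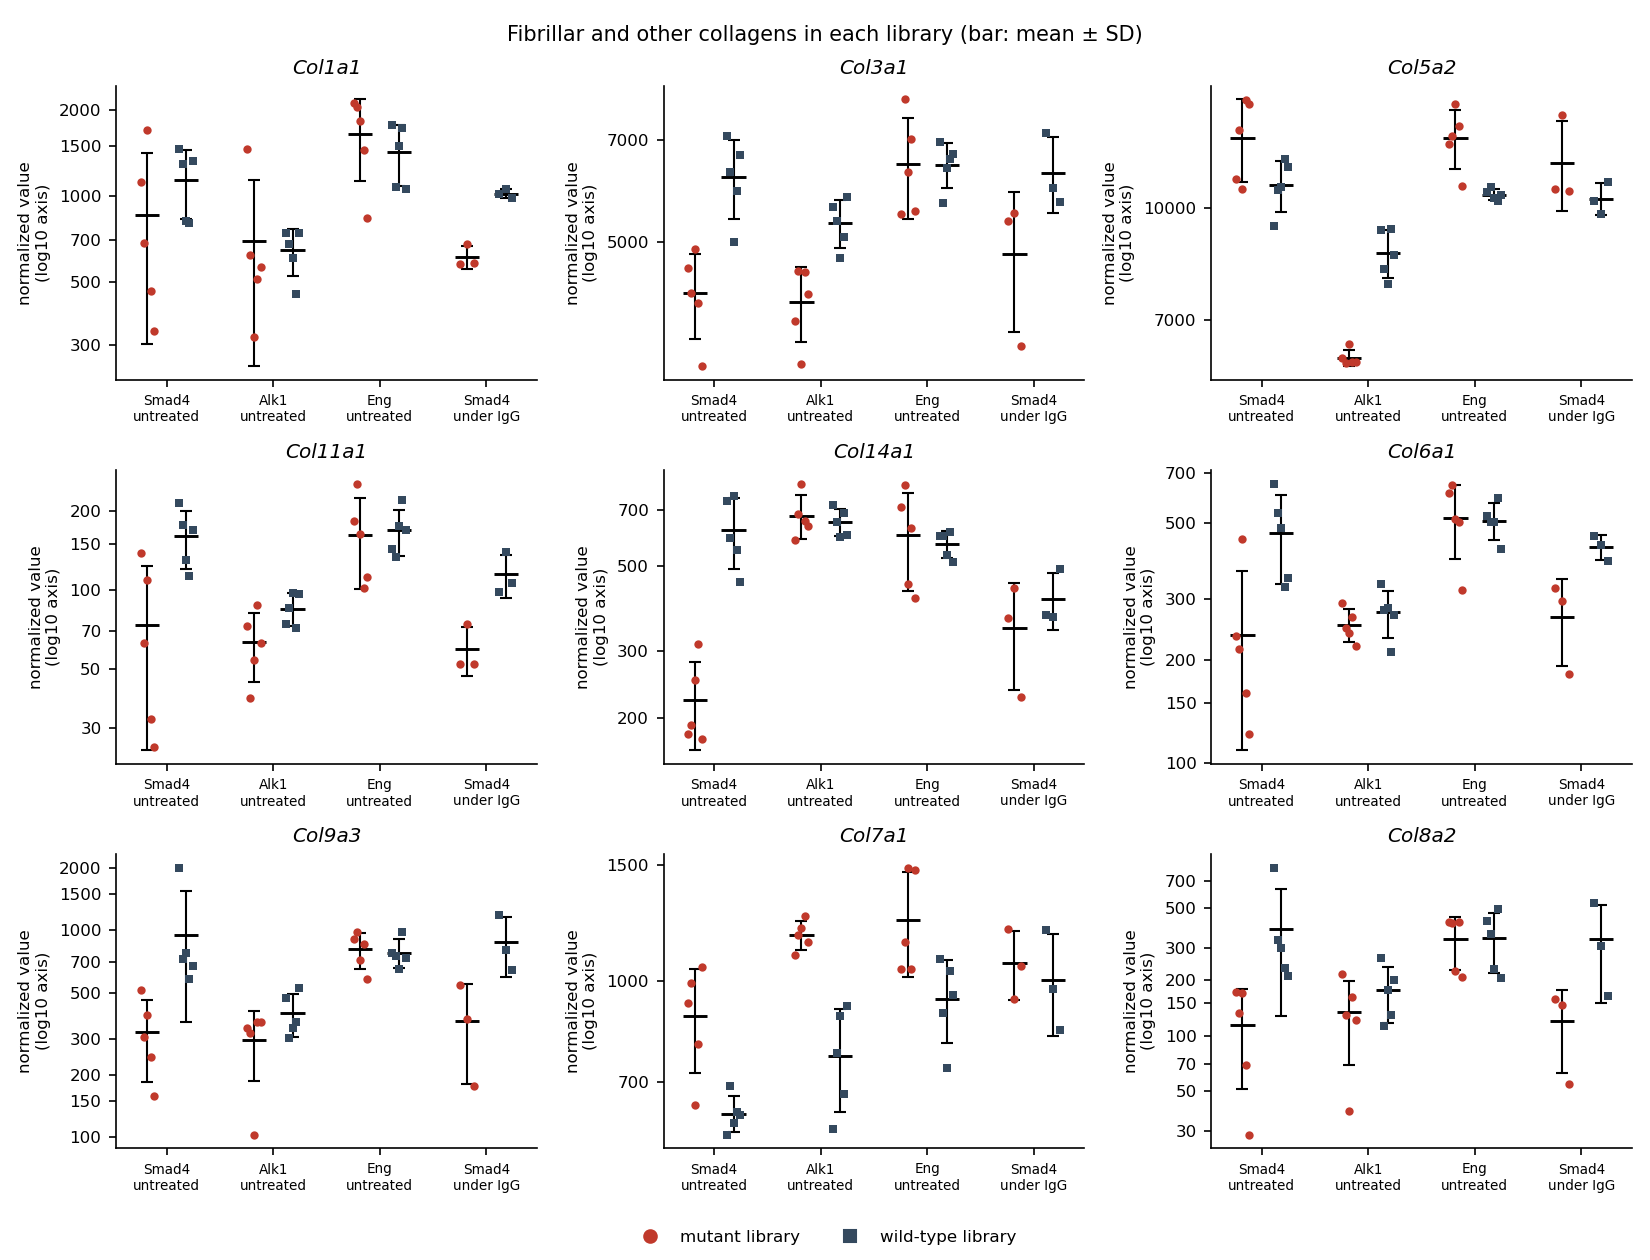
Normalized value (log10 axis) of 4 fibrillar and 5 other collagens in each library, by comparison, with mutants in red left of wild types in dark blue and the mean ± SD in black. Col14a1 lies between 177 and 312 in Smad4 mutants, below every wild type, and Col5a2 lies between 6099 and 6488 in Alk1 mutants, below every wild type of that cohort.

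The antibody libraries gave a second set of Smad4 mutants with wild types of their own. Of the 38 collagens tested in both sets, 37 had a fold change of the same sign, and of the 23 called in untreated mutants 22 had the same sign under IgG, with Col13a1 as the exception. The calls common to both sets numbered 11, all in the same direction, which is 47.8% of the untreated calls and 84.6% of the 13 calls under IgG. Over all genes, 80.6% of the 13860 tested in both sets had the same sign. Of all genes called in untreated mutants, 95.9% had the same sign under IgG, so the 22 of 23 collagens lie near that share. The calls shared in direction over all genes were 49.0% of the untreated calls and 67.1% of the calls under IgG. The 11 collagens called in both sets were Col4a1, Col4a2 and Col18a1 (higher) and Col4a5, Col4a6, Col1a2, Col5a1, Col11a1, Col6a1, Col9a2 and Col9a3 (lower).

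Differences between the cohorts were tested as differences of within-table effects in 1 fit of the 30 untreated libraries. Of 39 collagens, 10 differed between Smad4 and Alk1 (15.9% of all 14701 genes did), 14 between Smad4 and Eng (8.04%), and 2 between Alk1 and Eng (14.5%). Col18a1 differed in all 3 tests, by 2.88 ± 0.12 for Smad4 minus Alk1 (SE, adjusted p = 6.99e-16), 2.10 ± 0.12 for Smad4 minus Eng (1.45e-12) and -0.79 ± 0.12 for Alk1 minus Eng (6.36e-05). Col4a1 rose more in Smad4 than in Alk1 mutants (0.50 ± 0.15, 0.0209) and than in Eng mutants (0.52 ± 0.15, 0.0286, but 0.331 after quantile normalization). Col14a1 fell more in Smad4 mutants, by -1.53 ± 0.24 against Alk1 (4.12e-05) and -1.52 ± 0.24 against Eng (9.17e-05). Col5a2 differed between Alk1 and Eng (-0.73 ± 0.10, 2.31e-05) and between Smad4 and Alk1 (0.69 ± 0.10, 3.02e-05).

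Of 19 measured genes for hydroxylases, glycosyltransferases and chaperones of collagen chains, 12 rose and none fell in Smad4 mutants, 6 rose and 1 fell in Alk1 mutants, 5 rose and 2 fell in Eng mutants, and 6 rose and none fell under IgG. The called parts of this list were 63.2%, 36.8%, 36.8% and 31.6% in that order, against 33.0%, 33.2%, 21.5% and 24.0% of all genes, and 7 of the 19 were not called in Smad4 mutants. In Smad4 mutants Colgalt1, which adds galactose to collagen, averaged 9764 ± 773 against 7420 ± 406 in wild types (log2 0.39 ± 0.06, adjusted p = 0.000797). Plod3, a lysyl hydroxylase, and Fkbp10, a chaperone, rose by 0.42 ± 0.07 (0.0011) and 0.47 ± 0.08 (0.0019). In Alk1 mutants Plod2, another lysyl hydroxylase, averaged 1655 ± 247 against 816 ± 28 in wild types (1.01 ± 0.10, 1.24e-05), and the prolyl hydroxylase chain P4ha2 averaged 225 ± 57 against 64.1 ± 8.9 (1.75 ± 0.19, 2.73e-05). In Eng mutants Plod1 fell by 0.27 ± 0.05 (0.00145) and Serpinh1, the collagen chaperone HSP47, rose by 0.17 ± 0.03 (0.00345).

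Among 13 measured genes for processing and cross-linking outside the cell, 3 rose and 3 fell in Smad4 mutants, 2 rose and 3 fell in Alk1 mutants, 2 rose in Eng mutants, and 3 rose and 1 fell under IgG. This is 46.2% called in Smad4 mutants (33.0% of all genes), 38.5% in Alk1 mutants (33.2%), 15.4% in Eng mutants (21.5%) and 30.8% under IgG (24.0%). Loxl2, a lysyl oxidase-like enzyme that cross-links type IV collagen, was higher in all 4 comparisons. It averaged 2425 ± 752 in Smad4 mutants and 1201 ± 114 in wild types (log2 0.96 ± 0.18, adjusted p = 0.00227), and 3835 ± 579 in Alk1 mutants and 1629 ± 116 in wild types (1.22 ± 0.10, 3.34e-06). In Eng mutants it averaged 2979 ± 266 and in wild types 1683 ± 359 (0.85 ± 0.12, 0.000512), and under IgG 1721 ± 176 in mutants and 1280 ± 98 in wild types (0.43 ± 0.09, 0.0105). Its relative Loxl4 rose by 1.19, 1.77, 1.55 and 0.96 on the log2 scale in Smad4 mutants, Alk1 mutants, Eng mutants and IgG mutants (adjusted p = 0.0021, 8.5e-05, 0.000126 and 0.0241), at values under 350 in every library. The relatives Lox, Loxl1 and Loxl3 were called higher in no comparison. Loxl3 fell in Smad4 mutants (-0.92 ± 0.24, adjusted p = 0.0144) and Lox in Alk1 mutants (-0.54 ± 0.19, 0.041). Bmp1 had the smallest adjusted p of this list in both Smad4 comparisons. It rose in untreated mutants (0.39 ± 0.07, 0.00145) and under IgG (0.38 ± 0.04, 0.000718), and was not called in Alk1 or Eng mutants (0.164 and 0.341). Tll1 fell in Smad4 mutants (-0.89, 0.00593), Alk1 mutants (-0.84, 0.0073) and under IgG (-0.78, 0.0296), and was not called in Eng mutants (0.0982).

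Of 10 measured collagen receptors, 1 rose and 5 fell in Smad4 mutants, 2 rose and 4 fell in Alk1 mutants, 1 rose in Eng mutants, and 1 rose and 6 fell under IgG, where 33.0%, 33.2%, 21.5% and 24.0% of all genes were called. Itgb1, the beta chain of the collagen-binding integrins, rose in each comparison, with 58700 ± 8858 in Smad4 mutants and 42640 ± 4476 in wild types (log2 0.46 ± 0.11, adjusted p = 0.00976). Itga2, the alpha chain of a main collagen receptor, averaged 916 ± 131 in Smad4 mutants and 1784 ± 233 in wild types (-0.96 ± 0.11, 9.69e-05), and 834 ± 329 in Alk1 mutants and 1658 ± 394 in wild types (-1.03 ± 0.23, 0.00432). Under IgG the collagen-activated kinase Ddr1 averaged 293 ± 40 in mutants and 696 ± 155 in wild types (-1.23 ± 0.20, 0.00329).

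The LC10 mutants are in a table of their own, which also holds 3 columns named as LC10 wild types that match no sample in the labels and were not used here. Treatment and table could thus not be told apart among the libraries used, and no test was made. The LC10 values were rescaled to the IgG libraries with the median ratio of all genes. Col18a1 had scaled values of 98500, 86480 and 98640 in LC10 mutants, 73060, 97500 and 110200 in IgG mutants, and 25090, 22690 and 25280 in IgG wild types. Col4a1 had 243000, 221600 and 240700 in LC10 mutants, 212000, 245400 and 274800 in IgG mutants, and 171700, 157200 and 164100 in IgG wild types. For both, LC10 mutants overlapped IgG mutants and lay above every wild type. Col4a2 did the same, with 199900, 178500 and 191500 in LC10 mutants, 161800, 181400 and 210700 in IgG mutants, and 134600, 128300 and 133600 in IgG wild types.

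Of 38 collagens, 2 lay wholly above and 6 wholly below the IgG mutants in LC10 mutants, which is 21.1%, and 18.4% of all 14052 genes did not overlap. Col7a1 had 1788, 1564 and 1253 in LC10 mutants, 1198, 940 and 1050.0 in IgG mutants, and 1198, 974 and 839 in IgG wild types. Col4a3 had 463, 544 and 610.1 in LC10 mutants, 442, 403 and 359 in IgG mutants, and 580, 408 and 587 in IgG wild types. Col3a1 had 3240, 3127 and 3518 in LC10 mutants, 5347, 5506 and 3540 in IgG mutants, and 7188, 5972 and 5685 in IgG wild types. These 3 show both directions, with Col7a1 and Col4a3 above and Col3a1 below the IgG mutants. Col23a1, Col28a1, Col5a2, Col5a3 and Col8a1 also lay below, by 0.37 to 0.83 on the log2 scale.

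**Figure D5:**
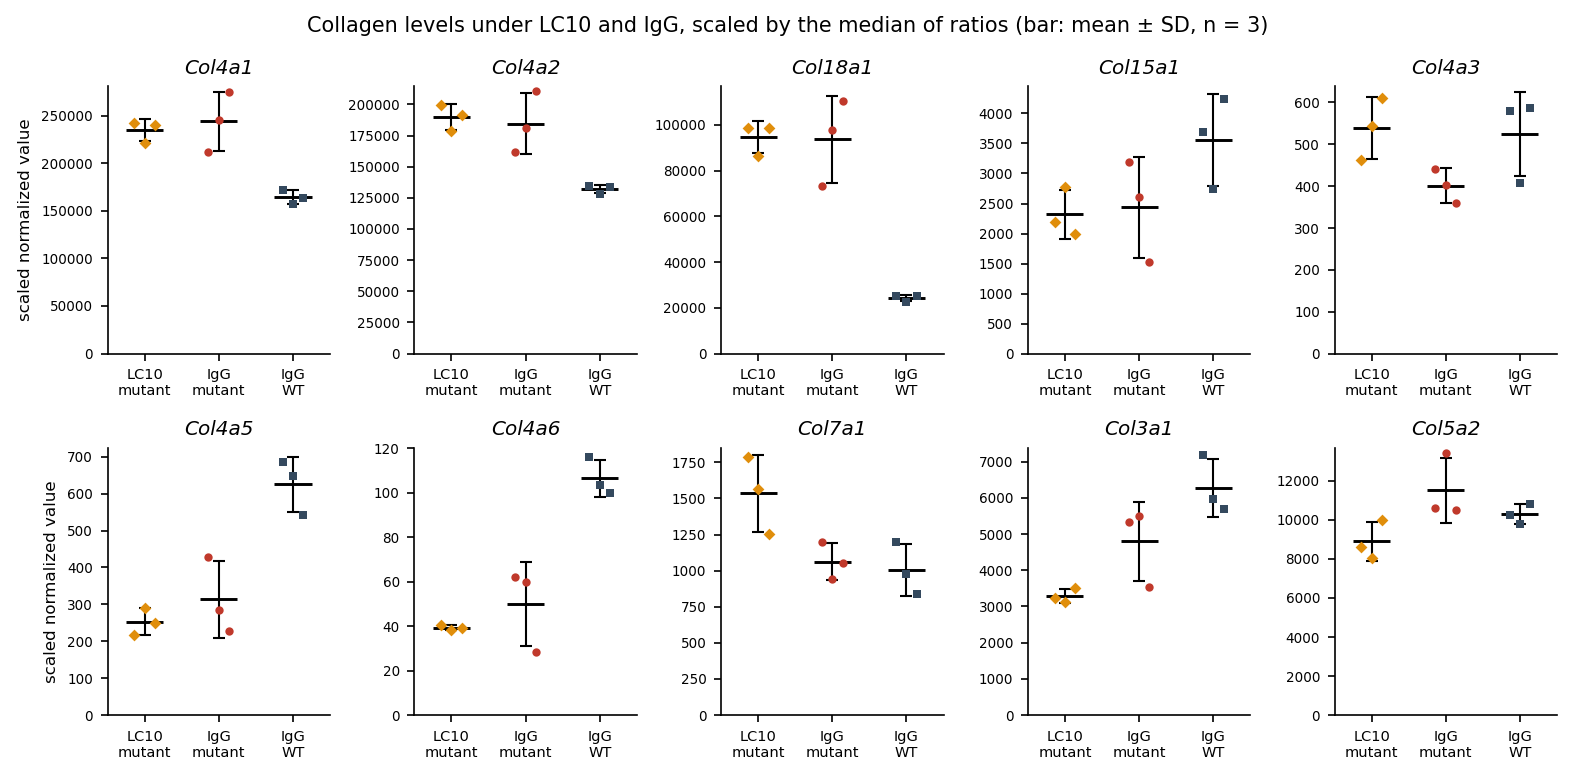
Scaled normalized value of 10 collagens in each of 3 LC10 mutants (diamonds), 3 IgG mutants (circles) and 3 IgG wild types (squares), with the mean ± SD. Col18a1, Col4a1 and Col4a2 of LC10 mutants overlap IgG mutants and lie above the wild types.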

How the data were processed

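Messenger RNA of PECAM-captured brain endothelial cells was sequenced with an unstranded kit (TruSeq version 2), per the labels' protocols. The authors deposited 5 tables with a normalized signal for each gene in each library, which the labels call raw counts. The genome build was mm10, per the submitters' processing notes, and how reads were counted and scaled is not given in the sources used here. Because the values are not whole, no count test was used. Only 28.1 to 70.0% of low values lay within 0.05 of a whole multiple of the commonest low value, so whole reads were not recovered. The lists and members were chosen with earlier results of these data known.

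Untreated columns were matched to groups, antibody columns to samples by title, and 3 columns of the LC10 table named as wild types, which match no sample in the labels, were not used. Some names hold a library code (L146, L219, L210, L216), whose meaning is not given. Of 24972 rows, 26 were dropped because the symbol had become a date or occurred more than once. Values were used as deposited, as log2(value + 2), with a filter of 20 in 5 libraries (3 of 9 for the antibody libraries), in limma 3.58.1 (R 4.3.3) with an intensity trend, and fold changes of low genes are therefore understated. Each untreated cohort was fitted alone, and LC10 mutants entered the IgG fit as a group of their own for the spread only. Ratios were compared by exact permutation (SciPy 1.17.1). Gene positions and exon lengths came from GENCODE M21 (GRCm38) and promoters from RefSeq. Procedures were tested on simulated data.

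Values by library are given for measured basement membrane collagens and for others called with a log2 change of at least 0.5, and up to 3 called genes of smallest adjusted p per list were named from the lists of processing enzymes and receptors. Lox, Loxl1 and Loxl3 were named besides, as relatives of Loxl2. Some genes named for 1 comparison, such as Itgb1 and Tll1, were followed in others where they were not among the 3 smallest. Other scalings, pseudocounts of 1 and 10, no filter, no trend, library codes and left-out libraries were tried. In the IgG comparison and the uncoded Smad4 libraries same-numbered mutants and wild types had correlations of mixed sign. In the uncoded Alk1 libraries, whose column names hold the numbers 1 to 3, all were above 0 (0.157, 0.187 and 0.108). The block was fitted there after seeing the data. Unmatched numbers reached 0.356 in the Smad4 cohort, and so few libraries cannot decide whether the numbers pair them.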

Additional observations from a re-analysis of the deposited data

Results flagged for a closer look

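In 10 of 162 groups of 5 libraries (6.2%, where chance gives about 5%) a single library stood apart from the other 4 of its group. Alk1 mutant 1 was the highest of its group in Col15a1 (5432, others 2794 to 3504), Col1a1 (1461) and Col4a3 (1161). Smad4 wild type 1 was the highest of its group in Col6a6 (575.5), Col8a2 (824.7) and Col9a3 (2007), and Smad4 mutant 1 was the highest in Col6a6 (244.1). Alk1 mutant 3 was the lowest in Col9a3 (103), Eng wild type 1 the highest in Col28a1 (283.6) and Eng wild type 3 the highest in Col4a3 (971.7).

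The effect of 16 collagens differed between untreated cohorts, as differences of log2 fold changes in the joint fit. For Smad4 minus Alk1 the difference was 2.88 for Col18a1, 0.69 for Col5a2, 0.50 for Col4a1, 0.47 for Col4a2, -0.63 for Col4a3, -0.77 for Col16a1, -0.97 for Col6a1, -1.11 for Col15a1, -1.44 for Col4a4 and -1.53 for Col14a1. For Smad4 minus Eng it was 2.10 for Col18a1, 0.54 for Col4a2, 0.52 for Col4a1, -0.54 for Col3a1, -0.86 for Col15a1, -0.91 for Col4a3, -1.04 for Col1a2, -1.05 for Col4a5, -1.05 for Col26a1, -1.07 for Col6a1, -1.52 for Col4a4, -1.52 for Col14a1, -1.55 for Col9a3 and -2.06 for Col6a6. For Alk1 minus Eng it was -0.73 for Col5a2 and -0.79 for Col18a1.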

How the results depend on the processing

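No called collagen changed direction under any setting tried. Besides left-out libraries and replicate blocks, the count of called collagens fell by over 1.5 times to 15 (Smad4) and 4 (Alk1) among libraries without a code, which leaves 3 against 3, and to 8 under IgG without the intensity trend. Leaving out 1 library at a time gave 18 to 29 calls in Smad4 mutants, 10 to 14 in Alk1 mutants, 5 to 8 in Eng mutants and 5 to 18 under IgG. The low counts under IgG were 5 without wild type 1, and 7 without wild type 2, mutant 2 or mutant 3. Calls held under every setting for 10 of 23 collagens in Smad4 mutants (Col14a1, Col15a1, Col18a1, Col26a1, Col4a1, Col4a2, Col4a4, Col4a5, Col9a2, Col9a3), 3 of 13 in Alk1 mutants (Col18a1, Col5a2, Col7a1), 3 of 7 in Eng mutants (Col4a1, Col4a3, Col5a2) and 5 of 13 under IgG (Col18a1, Col1a1, Col4a1, Col4a2, Col4a5). Each called collagen kept its direction within every library code. The calls were made on these same libraries, so this is no separate check, and code L216 holds 1 mutant and 1 wild type.

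Dividing by the library total moved the share of higher calls over all genes from 52.1 to 37.2% (Smad4) and from 52.7 to 41.1% (Alk1), while the collagen calls were then 5 higher and 21 lower (Smad4) and 3 and 11 (Alk1). Quantile normalization gave shares of 53.0% (Smad4) and 46.6% (Alk1), with 5 collagens higher and 14 lower (Smad4), 4 and 8 (Alk1), 4 and 2 (Eng) and 4 and 7 (IgG).

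Same-numbered mutants and wild types under IgG had correlations of 0.04, 0.02 and -0.07, and a replicate block gave 19 calls in place of 13. Correlations from so few libraries cannot decide whether the numbers pair them. Among the untreated libraries without a code, same-numbered columns had correlations of -0.08, 0.17 and -0.10 in the Smad4 cohort, where a replicate block gave 12 calls, and of 0.16, 0.19 and 0.11 in the Alk1 cohort, where each library correlated best with its own number and the block gave 8. These block fits were chosen after seeing the data. No paired analysis was possible for the coded libraries and the Eng cohort because their columns share too few numbers. Collagens near a value of 20 may be limited by depth, which was not tested.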
